A study of Zea mays with 6 samples.

Results

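The starch synthesis genes followed here are 10 maize genes that carry ADP-glucose production, glucan chain growth, branching and trimming: sh2, bt2, bt1, wx1, the starch synthase I gene (ss1 below), su2, du1, sbe1, ae1 and su1. They were chosen by gene identifier under a rule that uses no measured value, although the list was drawn up with earlier results of these data known, and 9 of the 10 matched a row among 31470 listed genes. The identifier given for bt1, the ADP-glucose transporter of the amyloplast envelope, matched none, and bt1 was not analysed here. Transcripts were measured by RNA sequencing of mature anthers, as 3 libraries of plants labelled ZmCOI2a-/- and ZmCOI2b-/- (the mutant) and 3 libraries of wild type. Both groups are in line B104, an inbred line of maize, and the labels give no treatment, time in days or number of plants per library. ZmCOI2a and ZmCOI2b belong to the COI family of F-box jasmonate receptors, and the title of the series places them in anther dehiscence and male fertility.

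Starch is made in plastids from ADP-glucose. ADP-glucose pyrophosphorylase, built of large and small subunits, makes this sugar nucleotide from glucose 1-phosphate, starch synthases join its glucose units into chains, branching enzymes add branch points, and debranching enzymes trim them. Maize pollen stores starch as it matures, and iodine staining of this starch is a classic test of pollen, in which grains with a defective wx1 stain reddish instead of blue-black. Most of these genes are known by name from kernel mutants, so their published roles come largely from endosperm.

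The libraries were of like depth, with 16845656 to 17759978 reads counted on genes, as inferred from the FPKM values. On principal components of all tested genes the genotypes separated on the first component (52.8% of the variance), and wild-type replicates 2 and 3 lay far apart on the second, at -37.1 and 47.3. The files do not pair identifiers with gene names, so tissue markers and the 2 mutated genes were not analysed here and the labels of tissue and genotype were not checked on them. Whether each library comes from its own plants is not in the labels, and the p-values therefore reflect only library-to-library spread, part of which may be technical. In whole anthers, fewer cells of a type and less RNA per cell cannot be told apart.

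By level, 4 of the 9 genes were moderately abundant, 4 were low, and sh2 was lowest, with 11 to 30 reads per library. Values are FPKM, fragments per kilobase of counted gene length scaled to library depth. Over the 6 libraries ss1 averaged 16.6 FPKM (range 12.3 to 23.2), ae1 15.1 (7.41 to 23.8), sbe1 14.0 (9.78 to 18.3) and bt2 8.90 (5.66 to 13.6). The ranges of these 4 genes overlapped. Within each of the 6 libraries, ss1 exceeded sbe1 and sbe1 exceeded bt2, with ss1 and sbe1 close in wild-type replicate 3 (15.5 and 15.4 FPKM). The place of ae1 changed between libraries, from the highest of the 4 in wild-type replicate 2 to the lowest in wild-type replicate 3. The next genes were du1 at 2.27 FPKM (1.20 to 3.74), wx1 at 2.19 (1.52 to 3.30) and su2 at 2.00 (0.838 to 3.26), whose ranges overlapped each other and not those of the first 4. The debranching gene su1 followed at 1.10 FPKM (0.703 to 1.59), and sh2 was lowest in every library at 0.192 FPKM (0.108 to 0.286). Among all listed genes, the mean of ss1 exceeded that of 84.8%, the mean of wx1 that of 51.5%, and the mean of sh2 that of 22.9%. Reads on the 9 genes together made up 0.0397, 0.0346 and 0.0473% of the mutant libraries and 0.0518, 0.0673 and 0.0369% of the wild-type libraries.

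**Figure D1:**
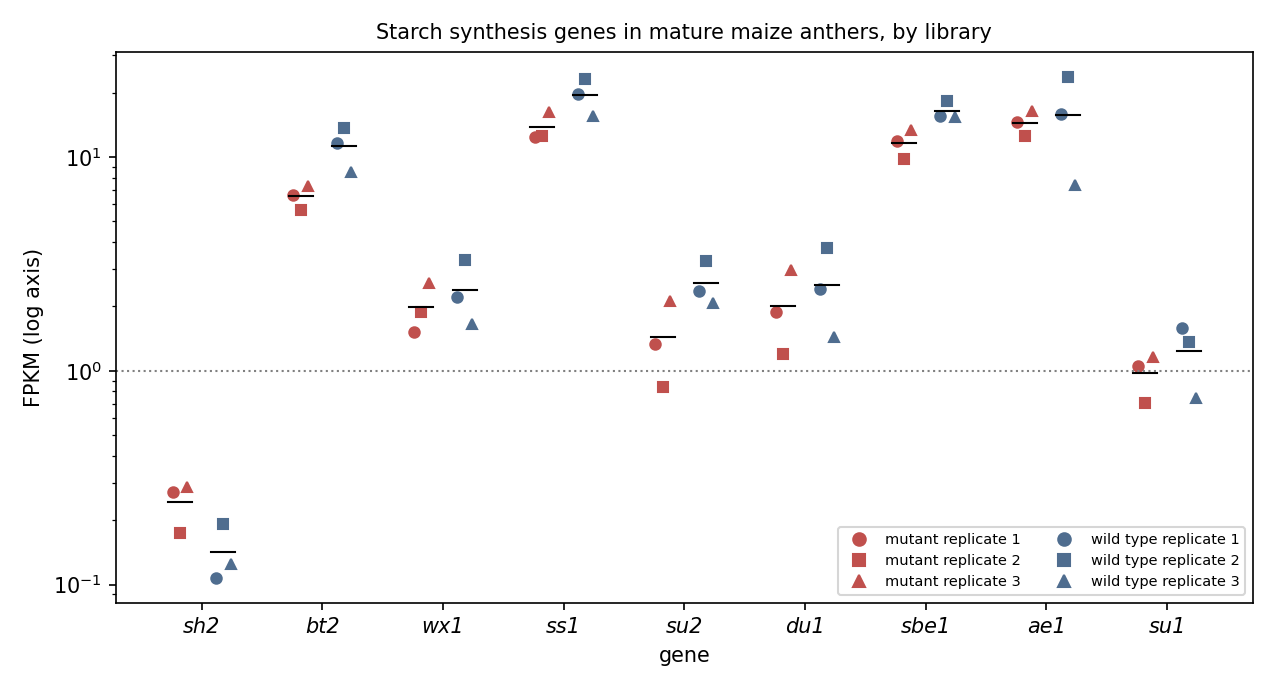
FPKM of each starch synthesis gene (log axis) in each library, mutant left of wild type, with replicates marked by symbol, the group mean as a bar, and a dotted line at 1 FPKM. Bt2, ss1, sbe1 and ae1 lie between 5.66 and 23.8 FPKM, the other genes but sh2 between 0.703 and 3.74, and sh2 between 0.108 and 0.286.

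Of the 8 genes that passed the abundance filter (at least 1 FPKM in at least 3 libraries), 0 were called between genotypes and all 8 missed the threshold. A call needed an adjusted p under 0.05, Benjamini-Hochberg over 18984 genes, from limma on log2(FPKM + 1). By that rule 6.65% of all tested genes were called, 4.75% lower and 1.9% higher in the mutant. At an unadjusted p under 0.05, 4 of the 8 genes passed (bt2, sbe1, su2 and ss1), all with lower means in the mutant, beside 28.5% of all tested genes. A second tool, limma-voom on reads recovered from the FPKM values, also called 0 of 8, with 4 at an unadjusted p under 0.05, beside 7.4% and 29.1% of all genes. The count of 4 depended on the setting. At an unadjusted p under 0.05 it was 0 with median-of-ratios scaling (23.7% of all genes) and 0 with limma-voom under that scaling (also 23.7%). It was 1 with upper-quartile scaling (24.4%), and 1 to 4 with 1 library left out (18.4 to 27.8%). It stayed at 4 with 0.1 or 0.5 instead of 1 added to FPKM (28.3% and 28.4%). With a filter of 5 FPKM it was 3 of 4 genes (27.1%), and with no filter 3 of 9 (22.2%). The log2 fold changes, mutant over wild type, were negative for 7 of the 8 genes, beside 70.7% of all tested genes. Their median was -0.34, beside a median of -0.20 over all tested genes. With median-of-ratios scaling, which brings the median of all genes close to 0 (0.03), the median of the 8 was -0.12 and 6 were negative, beside 47% of all genes. The scaling thus moved all genes by about as much as it moved these.

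**Figure D2:**
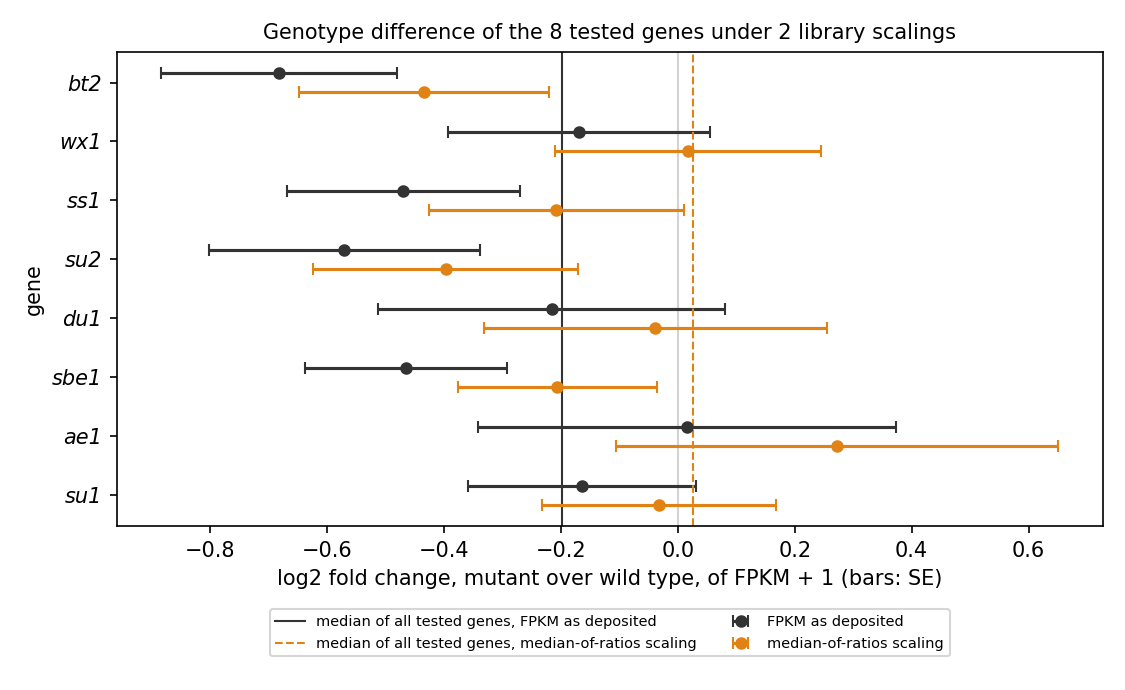
Log2 fold change of FPKM + 1, mutant over wild type, with its standard error, for the 8 tested genes with FPKM as deposited (black) and with median-of-ratios scaling (orange). Vertical lines mark the median of all tested genes, -0.20 as deposited and 0.03 after scaling. On this scale bt2 has the most negative value under both, at -0.68 and -0.43. With limma-voom, or with 0.1 instead of 1 added to FPKM, su2 is more negative than bt2.

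The ADP-glucose pyrophosphorylase genes followed here, bt2 and sh2, differed in level and in the direction of their means. On average bt2 was lower and sh2 higher in the mutant, neither past the threshold. Bt2 (Zm00001d050032, chromosome 4, 61315575 to 61321350, plus strand, B73 RefGen_v4), which encodes the small subunit of the endosperm enzyme, had 6.67, 5.66 and 7.32 FPKM in mutant replicates 1, 2 and 3, against 11.6, 13.6 and 8.54 FPKM in wild-type replicates 1, 2 and 3. Read numbers behind these values were 302, 256 and 335 for the mutant and 515, 591 and 388 for wild type. In FPKM as deposited, every mutant library lay below every wild-type library, as for 28.6% of all tested genes. Median-of-ratios scaling divides mutant replicate 3 by 0.929 and wild-type replicate 3 by 1.20. For bt2 that places mutant replicate 3 above wild-type replicate 3, so the groups overlap under that scaling. The means were 6.55 ± 0.84 FPKM in mutant anthers and 11.2 ± 2.6 FPKM in wild-type anthers (SD, n = 3 each). The log2 fold change of -0.68 (SE 0.20, 95% interval -1.15 to -0.22) missed the threshold (adjusted p = 0.0762 by limma). With median-of-ratios scaling it was -0.43 (SE 0.21, adjusted p = 0.259 by limma). Without wild-type replicate 3, the lowest of the wild-type libraries for bt2, the log2 fold change was -0.85 and bt2 was called (adjusted p = 0.0352 by limma), and in the other 14 settings it was not called, with adjusted p from 0.0636 to 0.259.

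Sh2 (Zm00001d044129, chromosome 3, 219979958 to 219989574, minus strand) encodes the large subunit of the same enzyme. It had 0.270, 0.174 and 0.286 FPKM in the mutant libraries, against 0.108, 0.191 and 0.125 FPKM in the wild-type libraries. The underlying read numbers were 28, 18 and 30 in mutant replicates 1, 2 and 3 and 11, 19 and 13 in wild-type replicates 1, 2 and 3, and the groups overlapped at mutant replicate 2 and wild-type replicate 2. A count of 11 has a 95% counting interval of 5.49 to 19.7 reads, and a count of 30 one of 20.2 to 42.8. Sh2 stayed below 1 FPKM in all 6 libraries and was outside the main test. Fitted with no filter, its log2 fold change was 0.12 (SE 0.06, adjusted p = 0.296 by limma, with 0.928% of 31470 genes called), on a scale that understates changes at such low values. With median-of-ratios scaling the sh2 log2 fold change was larger, at 0.17 (SE 0.06, adjusted p = 0.207 by limma), and still missed the threshold. Summed over libraries and corrected for depth, the ratio of its 76 mutant to its 43 wild-type reads was 1.73 (95% interval 1.17 to 2.58), which covers counting error only and not the spread between libraries.

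Within each library, the ratio of bt2 to sh2 does not depend on library scaling. It was 24.7, 32.6 and 25.6 in the mutant libraries, against 107, 71.3 and 68.4 in the wild-type libraries. Every mutant library was below every wild-type library, with means of 27.6 ± 4.3 in mutant anthers and 82.3 ± 21.7 in wild-type anthers (SD, n = 3 each). The ratio was not tested, and its precision is set by the 11 to 30 sh2 reads per library. It has no background over other gene pairs beside it, so how common such non-overlap is among ratios is not known here. In both genotypes the bt2 transcript was thus present in large excess over that of sh2. Other genes for subunits of this enzyme were not analysed here, so the balance of all large and small subunit transcripts is not known.

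**Figure D3:**
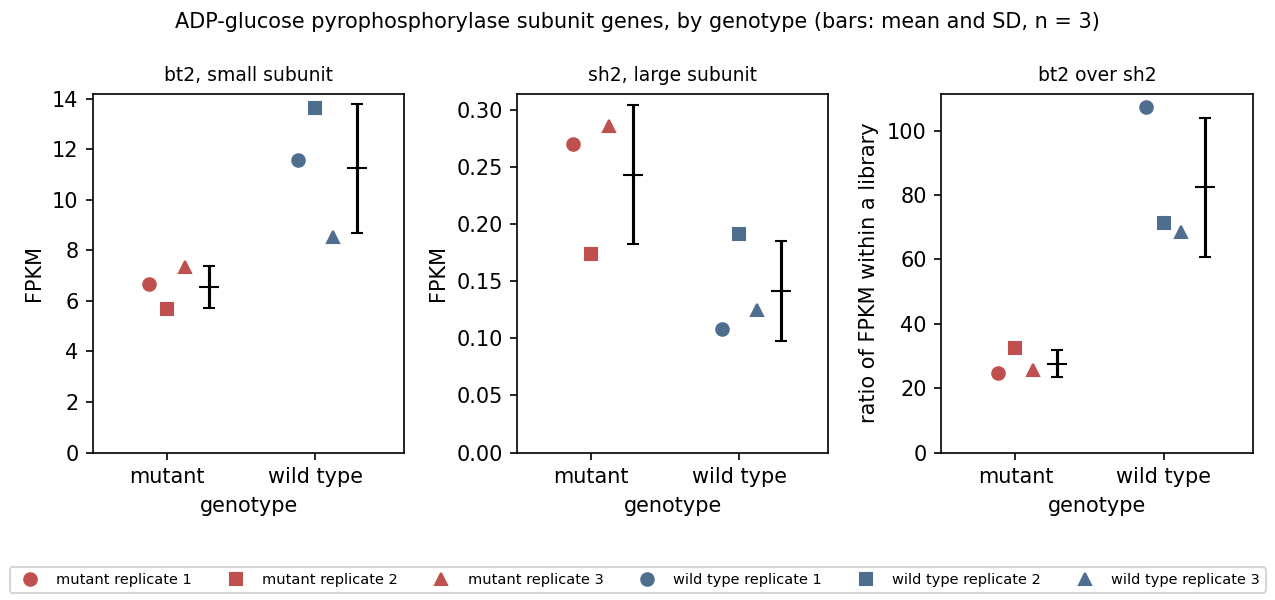
FPKM of bt2 and of sh2, and the ratio of bt2 to sh2 within each library, for the 3 mutant and 3 wild-type libraries, with mean and SD at the right of each group. In FPKM as deposited, bt2 does not overlap between genotypes, whereas sh2 does. With median-of-ratios scaling, not drawn here, bt2 overlaps. The ratio does not overlap (24.7 to 32.6 in the mutant, 68.4 to 107 in wild type). The ratio has no background over other gene pairs beside it.

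Wx1 (Zm00001d045462, chromosome 9, 23107329 to 23111318, minus strand) encodes the granule-bound starch synthase that makes amylose, the largely unbranched glucan of starch. It had 1.52, 1.88 and 2.56 FPKM in the mutant libraries, against 2.21, 3.30 and 1.66 FPKM in the wild-type libraries, from 72 to 150 reads per library. The groups overlapped, and the log2 fold change was -0.17 (SE 0.22, 95% interval -0.68 to 0.35, adjusted p = 0.643 by limma). Its sign turned with median-of-ratios scaling (0.017), with limma-voom under that scaling (0.053) and without wild-type replicate 2 (0.017). Of the summed FPKM of the 9 genes, wx1 made up 3.73 ± 0.68% in mutant anthers and 3.28 ± 0.30% in wild-type anthers (SD, n = 3 each), a difference within the spread between libraries. Among 18976 other tested genes, the ones most like wx1 over the 6 libraries were Zm00001d008941 and Zm00001d001828, each with a Pearson's r of 0.99 on log2(FPKM + 1). With so many genes compared over so few libraries such values are a description only, and no name is given for either identifier in the sources used here.

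The remaining starch synthases followed here extend the chains of amylopectin, the branched glucan. Ss1 (Zm00001d045261, chromosome 9, 17401822 to 17412594, plus strand), which builds the shortest chains, had 12.3, 12.6 and 16.3 FPKM in the mutant libraries, against 19.8, 23.2 and 15.5 FPKM in the wild-type libraries. Mutant replicate 3 lay above wild-type replicate 3, and the other mutant libraries lay below all of wild type. The log2 fold change was -0.47 (SE 0.20, 95% interval -0.93 to -0.01, adjusted p = 0.167 by limma), and with median-of-ratios scaling it was -0.21 (SE 0.22, adjusted p = 0.605 by limma). Su2 (Zm00001d037234, chromosome 6, 117124065 to 117128209, plus strand), starch synthase IIa, which lengthens short chains, had 1.33, 0.838 and 2.13 FPKM in the mutant libraries, against 2.36, 3.26 and 2.07 FPKM in the wild-type libraries. Its log2 fold change was -0.57 (SE 0.23, adjusted p = 0.153 by limma), and here too only mutant replicate 3 reached the range of wild type. With median-of-ratios scaling the su2 log2 fold change was -0.40 (adjusted p = 0.325 by limma). It was -0.86 with 0.1 instead of 1 added to FPKM, -0.90 with limma-voom and -0.61 with limma-voom under median-of-ratios scaling. In these last settings bt2 was at -0.75, -0.76 and -0.48, so su2 was the more negative there. The su2 values rest on 44 to 164 reads per library, and the mutant libraries differed 2.54-fold among themselves. Du1 (Zm00001d000002, contig B73V4_ctg150, 193401 to 204736, minus strand), starch synthase III, had 1.89, 1.20 and 2.96 FPKM in the mutant libraries, against 2.41, 3.74 and 1.43 FPKM in the wild-type libraries. Each group spanned more than the difference between their means, with a log2 fold change of -0.22 (SE 0.30, adjusted p = 0.655 by limma) that was 0.024 without wild-type replicate 2. The ratio of ss1 to su2 within a library was 9.27, 15.0 and 7.66 in the mutant libraries, against 8.39, 7.12 and 7.51 in the wild-type libraries, so ss1 was the more abundant in all 6 libraries by FPKM.

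Branching enzymes introduce the branch points of amylopectin, and those followed here are sbe1 and ae1. Sbe1 (Zm00001d014844, chromosome 5, 65186102 to 65197475, minus strand), branching enzyme I, had 11.8, 9.78 and 13.4 FPKM in the mutant libraries, against 15.6, 18.3 and 15.4 FPKM in the wild-type libraries. As for bt2, every mutant library lay below every wild-type library in FPKM as deposited. These are the only 2 of the 8 tested genes with that pattern, beside 28.6% of all tested genes, so the share among the starch genes (2 of 8) is near the background. The means were 11.7 ± 1.8 FPKM in mutant anthers and 16.4 ± 1.6 FPKM in wild-type anthers (SD, n = 3 each), and the log2 fold change of -0.47 (SE 0.17, 95% interval -0.86 to -0.07) missed the threshold (adjusted p = 0.127 by limma). With median-of-ratios scaling it was -0.21 (SE 0.17, adjusted p = 0.502 by limma). Mutant replicate 3 then lay above wild-type replicate 3 for sbe1, as for bt2, so neither gene kept the non-overlap under that scaling.

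Ae1 (Zm00001d016684, chromosome 5, 172412995 to 172430415, minus strand), branching enzyme IIb, had 14.6, 12.5 and 16.4 FPKM in the mutant libraries, against 15.9, 23.8 and 7.41 FPKM in the wild-type libraries. The mutant libraries lay inside the range of wild type, whose highest and lowest libraries differed 3.21-fold. The coefficient of variation was 13.4% among the mutant libraries and 52.1% among the wild-type libraries, on 1475 or more reads per library. The log2 fold change was 0.015 (SE 0.36, 95% interval -0.81 to 0.84, adjusted p = 0.982 by limma), so on that scale the interval spans 0.571-fold to 1.79-fold. The sign turned without wild-type replicate 3, to -0.41 (adjusted p = 0.241 by limma), and without mutant replicate 3, to -0.072 (adjusted p = 0.930 by limma). The ratio of ae1 to sbe1 was 1.23, 1.28 and 1.22 in the mutant libraries, against 1.02, 1.30 and 0.482 in the wild-type libraries. Sbe1 thus exceeded ae1 in wild-type replicate 3 alone.

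Su1 (Zm00001d049753, chromosome 4, 43110569 to 43119167, plus strand) encodes the isoamylase that removes misplaced branches, and kernels without it store soluble phytoglycogen. It had 1.06, 0.703 and 1.16 FPKM in the mutant libraries, against 1.59, 1.36 and 0.743 FPKM in the wild-type libraries, from 65 to 145 reads. The groups overlapped, with a log2 fold change of -0.16 (SE 0.20, 95% interval -0.61 to 0.28, adjusted p = 0.601 by limma). It reached 1 FPKM in 4 of the 6 libraries and so passed the filter narrowly.

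The libraries of 1 genotype differed in a similar order across these genes. Among the wild-type libraries, replicate 2 was highest for 8 of the 9 genes (all but su1) and replicate 3 was lowest for 8 of 9 (all but sh2). The same held for 33.6% and 26.1% of all tested genes. Among the mutant libraries, replicate 3 was highest for 9 of 9 and replicate 2 lowest for 7 of 9, beside 39.9% and 44.9% of all tested genes. The genes share their libraries and are not independent of one another, so these counts are a description with no test. The median deviation of the 9 genes from their own mean log2 FPKM was -0.22, -0.49 and 0.20 in the mutant libraries, against 0.20, 0.64 and -0.35 in the wild-type libraries. Over all tested genes above 0 in every library it was -0.06, -0.19 and -0.09 in the mutant libraries, against 0.04, 0.12 and 0.26 in the wild-type libraries. Wild-type replicate 3 was therefore the highest library for genes at large and a low one for the starch genes. Without wild-type replicate 3, all 8 tested genes had negative log2 fold changes (67.2% of all genes), with a median of -0.48 beside -0.16 over all genes. Without mutant replicate 3, all 8 were negative as well (69.4% of all genes), with a median of -0.50 beside -0.21 over all genes. Without wild-type replicate 2, 5 of the 8 were negative (70.1% of all genes), with a median of -0.23 beside -0.20 over all genes. Without any 1 of the other 3 libraries, 7 of the 8 were negative (68.7 to 72.1% of all genes).

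**Figure D4:**
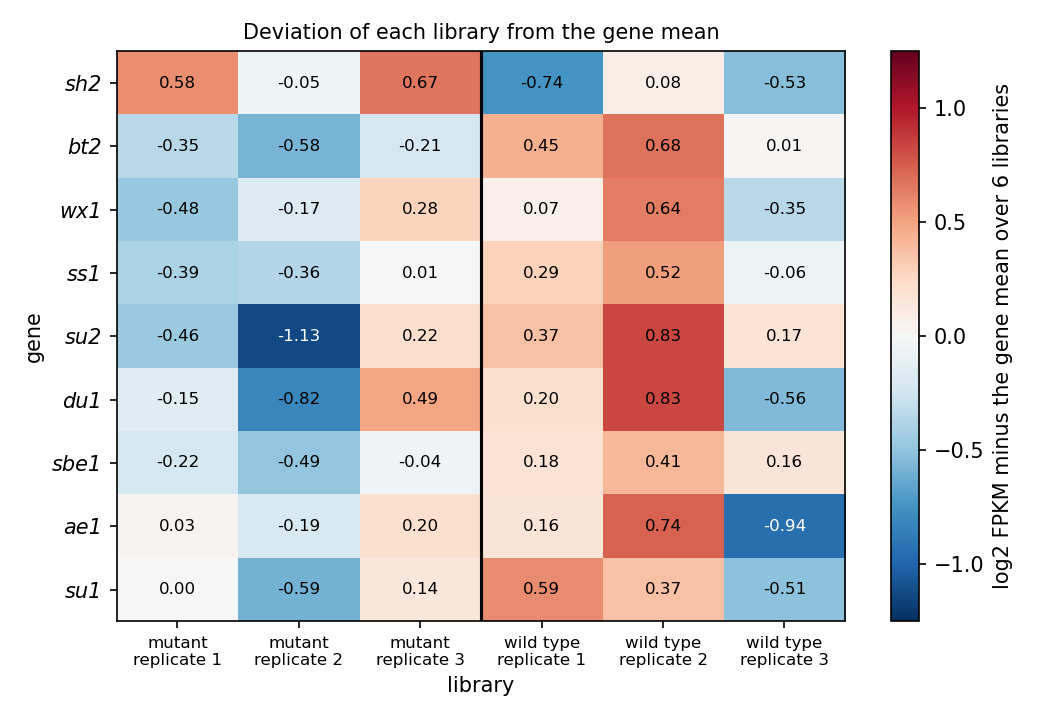
Log2 FPKM of each gene in each library minus that gene's mean over the 6 libraries, mutant libraries left of the line and wild-type libraries right of it. Wild-type replicate 2 is above the mean for all 9 genes (0.08 to 0.83), and wild-type replicate 3 is lowest for ae1 (-0.94).

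The share of each gene in the summed FPKM of the 9 genes was also computed for each library. Ae1, sbe1, ss1 and bt2 together held 87.7 ± 2.1% of the summed FPKM of the 9 genes in mutant anthers and 87.8 ± 0.8% in wild-type anthers (SD, n = 3 each). Bt2 held 13.0, 12.5 and 11.7% in the mutant libraries, against 16.2, 15.0 and 16.2% in the wild-type libraries. Sh2 held 0.524, 0.383 and 0.458% in the mutant libraries, against 0.151, 0.211 and 0.236% in the wild-type libraries. These shares, apart from that of wx1, were chosen after the values had been seen, were not tested, and have no background over other genes beside them.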

How the data were processed

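The values deposited by the authors are FPKM, 1 per gene and library, beside gene position and strand. Bowtie2 2.2.3, HISAT2 2.1.0, HTSeq 0.6.0 and the build B73 RefGen_v4 are listed, per the submitters' processing notes, with no role for each. The annotation release, filters and strand setting of the counting are not stated there. No other listed gene overlapped the starch genes.

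Library totals were first inferred from the FPKM values, as the whole number that the most genes with few reads pointed to. That number had 1135 to 1224 hits per library, against 385 to 882 for the next number. Whole reads were then recovered by finding, per gene, the smallest length that gave whole numbers in every library. The tolerance was 0.0001 reads, and 3e-09 more for each read, and this worked for 31465 of 31470 genes. Counted lengths of the starch genes were 2576 to 11290 bases.

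Genotypes were compared with limma 3.58.1 (R 4.3.3), which took log2(FPKM + 1), an intensity trend and no covariate, over all 6 libraries, for genes with at least 1 FPKM in at least 3 libraries. Tests are two-sided. Fold changes on this scale understate genes with low values. The fit was tested on simulated data. All 10 genes were to be named, and wx1 with the 2 genes most like it. Gene names come from the identifiers chosen for this work. A RefSeq table of assembly Zm-B73-REFERENCE-NAM-5.0 matched 0 of them, so the planned list of other starch genes and the marker lists were not run and no sequence is shown. The genes, lists and settings were chosen with earlier results of these data known. Alternatives were other scalings, pseudocounts and filters, limma-voom, a replicate block, and each library left out.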

Additional observations from a re-analysis of the deposited data

How the results depend on the processing

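Of the 8 tested starch genes (4 with a filter of 5 FPKM), 0 rose and 0 fell in every alternative run, except that bt2 fell without wild-type replicate 3, so leaving out 1 library gave 0 to 1 falls. Over all tested genes (361 rose, 901 fell), rises and falls numbered 661 and 410 with median-of-ratios scaling, 560 and 596 with upper-quartile scaling, 679 and 387 with limma-voom after median-of-ratios scaling (an alternative added after the data had been seen), 125 and 167 with no filter, 230 and 518 with a filter of 5 FPKM, and 25 to 634 and 24 to 739 with 1 library left out. The replicate block gave 247 rises and 468 falls and called 0 starch genes, with 1 of 8 at an unadjusted p under 0.05, beside 21.7% of all genes. The deviations of libraries with the same number correlated at 0.01, -0.38 and -0.33, so the numbers were not taken as pairs. Across different numbers the correlations ran from -0.17 to 0.44, highest for mutant replicate 3 with wild-type replicate 2. Next was mutant replicate 2 with wild-type replicate 3, at 0.27. The source of this shared variation was not tested. Of 127 refitted log2 fold changes of the 9 starch genes, 119 kept direction and side of the threshold, 1 gained a call (bt2) and 7 changed sign, all in uncalled genes. With median-of-ratios scaling wx1 was at 0.017, and with limma-voom under that scaling wx1 was at 0.053 and su1 at 0.014. With 1 library left out, wx1 ran from -0.33 to 0.017 and du1 from -0.46 to 0.024, both above 0 only without wild-type replicate 2, and ae1 from -0.41 to 0.37, below 0 without wild-type replicate 3 (-0.41) or mutant replicate 3 (-0.072). The cause was not tested. The difference between genotypes in the bt2 to sh2 ratio, -54.7, ran from -61.7 to -42.2 without 1 library, and that in the wx1 share, 0.447 percentage points, from 0.241 to 0.840. With 11 to 30 reads per library, depth limits sh2 most.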
